A study of Mus musculus with 13 samples.

Results

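RNA from M2 CD4 single-positive (CD4SP) thymocytes selected in CtslΔTEC mice was compared between cells stimulated for 4 h and unstimulated cells. The libraries were chosen by their labels alone, and 7 of the 13 libraries of the series belong here, 5 from unstimulated and 2 from stimulated cells, each from 1 mouse. All mice carried the transgenic Lm54 T cell receptor (TCR), which recognises a peptide of listeriolysin O (LLO) on the MHC class II molecule I-Ab, on a Rag1-/- background. In CtslΔTEC mice a floxed Ctsl allele is deleted by a Foxn1-cre transgene, so that cathepsin L is missing from thymic epithelial cells and not from the thymocytes themselves. Ctsl transcripts in the thymocytes therefore check neither the deletion nor the label. Rag1 transcripts were counted at 4.53 to 26.8 CPM (counts scaled to a common library total) in unstimulated cells in spite of the Rag1-/- label, and the files do not show whether they come from a disrupted allele.

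M2 cells are the most mature CD4SP thymocytes and were sorted as CD69-MHCI+. Stimulated cells received soluble anti-CD28 at 250 ng/ml and plate-bound LLO:I-Ab monomer at 1 µg/ml in serum-free medium. No culture step is described for unstimulated cells, and the stimulated libraries carry a later date than the 5 unstimulated ones, which themselves carry 2 dates. Antigen and CD28, the 4 h in culture and the date cannot be told apart in these data, and "response" below means the difference between these groups of libraries. The other 6 libraries came from control mice, labelled Ctsl fl/fl (4 unstimulated and 2 stimulated). They were used only where the responses of both genotypes were compared.

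A T cell that meets its antigen is signalled through the TCR and its kinases, which open calcium entry, the Ras-MAPK cascade and NF-kB. Calcium activates NFAT through calcineurin, MAPK signals induce early genes such as the EGR and AP-1 factors, and CD28 reinforces NF-kB and the supply of nutrients. In the first hours naive T cells leave quiescence. They induce activation receptors and cytokines, begin to build ribosomes and take up amino acids, and lose the transcripts of the receptors that guide their exit from the thymus. In bulk RNA, fewer cells of a type and less RNA per cell cannot be told apart.

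The unstimulated libraries held 25692380 to 39127833 estimated counts and the stimulated ones 11792192 (mouse 6) and 16866027 (mouse 7). Markers of the labelled cell type were present: Cd4 was at 1009 to 1062 CPM in unstimulated cells against 23.3 to 33.6 for Cd8a, and Cd3e at 602 to 683. Of 16 markers of M2 CD4SP cells, all tested, 9 were lower (7 at least 2-fold) and 5 higher after stimulation, with a median log2 fold change of −1.12. Retained-intron transcripts took 7.54 to 8.22% of the length-normalised signal (TPM, transcript levels per length and library) in unstimulated and 10.7 and 11.4% in stimulated libraries, and the part of this difference in any gene's change was not tested. Y-linked transcripts set stimulated mouse 6 apart from the other 6 libraries. They summed to 2.61 TPM in this mouse, against 231 in stimulated mouse 7 and 171–241.5 in unstimulated mice. The study used mice of both sexes, and the sex of each mouse was not tested. The size of the fall of Kdm5d and Uty, both called lower, turned on the stimulated mouse used: the log2 fold changes of −1.52 and −1.70 were −0.65 and −0.88 without mouse 6 and −4.79 and −4.71 without mouse 7, and both were still called in each of these fits.

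Of 13996 genes tested, 4729 (33.8%) were higher and 5339 (38.1%) lower in stimulated cells at an adjusted p under 0.1 (edgeR's quasi-likelihood test). Because most genes passed this test, genes that also changed at least 2-fold are counted separately: 2399 (17.1%) rose and 3328 (23.8%) fell by this rule. Values of the 2 stimulated and 5 unstimulated mice did not overlap for 10151 genes (72.5%). Among the genes called higher, 830 rose at least 4-fold and 133 at least 32-fold, and among those called lower 1599 fell at least 4-fold and 165 at least 32-fold. The genes that rose at least 2-fold took 7.35 to 8.43% of TPM in unstimulated libraries and 25 and 25.4% in stimulated ones. Those that fell at least 2-fold went from 20–23.3% of TPM to 5.85 and 5.78%. The counts given below for lists of genes are to be read against these shares. A gene that passed the count filter through the libraries of 1 group alone had to differ. Where calls are counted for a list with several such genes, their number is given. The median log2 fold change over all genes tested was −0.05, and −0.22 when libraries were scaled by their totals alone.

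**Figure D1:**
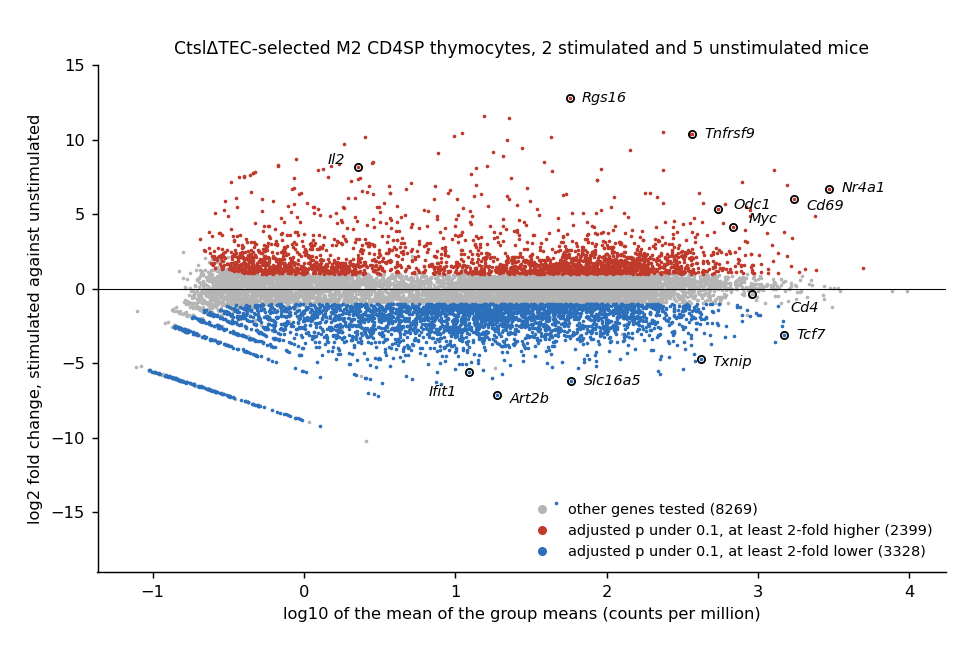
Each point is 1 gene, with the log10 of its mean level in CPM on the x axis and its log2 fold change, stimulated against unstimulated, on the y axis. Red points are the 2399 genes that rose at least 2-fold, blue points the 3328 that fell at least 2-fold (both at an adjusted p under 0.1) and grey points all others tested. The named genes span both ends, from Rgs16 and Tnfrsf9 at the top to Art2b, Slc16a5 and Ifit1 below.

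Early transcription factors of TCR signalling rose together. Of 14 EGR, NR4A and serum response factor (SRF) target factors tested, 12 rose and none fell, 10 of them at least 2-fold, and their median log2 fold change was 2.12. Nr4a1 (ENSMUSG00000023034, chromosome 15, 101254269 to 101274795), a nuclear receptor induced by TCR signals, was at 104, 49.3, 54.9, 32.4 and 45.1 CPM in the 5 unstimulated mice and at 5629 and 6088 in the 2 stimulated mice. Stimulated cells lay far above every unstimulated library, a 102-fold rise (log2 fold change 6.68 ± 0.35 (SE), adjusted p = 5.99e-08). Its relatives Nr4a2 and Nr4a3 went from means of 0.51 and 10.1 CPM to 706 and 2529. The EGR factors rose less in fold terms: Egr1 went from 143–243 CPM to 1261 and 914, Egr2 from 23.5–42.1 to 339 and 286, and Egr3 from 28.8–52.5 to 489 and 361. No EGR value of a stimulated mouse overlapped an unstimulated one.

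AP-1, ATF and BATF factors were split within the list. Of 18 tested, 12 rose and none fell, 11 of them at least 2-fold. Of the 18, 2 (Fosl1 and Atf3) passed the count filter through the stimulated libraries alone. Fosl2, a FOS-family partner in AP-1, was at 2.63, 1.78, 1.88, 1.36 and 1.63 CPM in unstimulated and at 504 and 443 in stimulated cells, a 253-fold rise (adjusted p = 3.12e-10). Atf3, a stress-induced ATF factor, had at most 2 counts in any unstimulated library and 22.1 and 17.3 CPM after stimulation, at least 174-fold higher. The JUN genes did not pass the test. Jun was at 702 and 410 CPM in unstimulated mice 1 and 3 and at 2.55 to 3.14 in mice 2, 4 and 5, with stimulated cells between, at 24.9 and 29.1. Junb had the same split (1020 and 586 against 67.9 to 85.4 CPM), and its stimulated values of 610 and 678 overlapped it. Mice 1 and 3 are the unstimulated libraries of the first date, and the part of the date in these values cannot be told apart from that of the mice. Against the 3 unstimulated mice of the second date alone, the log2 fold change was 3.25 for Jun (adjusted p = 8.51e-08) and 3.03 for Junb (adjusted p = 2.19e-08). Against the 2 of the first date alone it was −4.34 for Jun (adjusted p = 7.65e-07) and −0.30 for Junb (adjusted p = 0.27), so Jun was called in opposite directions.

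All 20 NF-kB subunits and regulators tested passed, 16 higher and 4 lower, with 14 higher and 2 lower at least 2-fold (median log2 fold change 2.17). Rel, which encodes the c-Rel subunit, was at 53.2, 66.4, 58.8, 58.1 and 62.1 CPM in unstimulated cells. It reached 1629 and 1798 CPM in stimulated cells, 28.7-fold higher (log2 fold change 4.84 ± 0.09, adjusted p = 2.13e-10), with no overlap. Nfkbid, an atypical nuclear IkB protein, rose 38.5-fold to 1590 and 1883 CPM, and Relb, Nfkb2 and Nfkb1 rose 23.5-fold, 22.5-fold and 13.9-fold. An NF-kB motif was found, on either strand, in 57.1% of the 21 promoters of this list in the RefSeq table, against 8.46% of all 32851 promoters of 300 bases. It was in 10% of the promoters of genes tested, and in 11.5% and 10.3% of those of genes that rose and fell at least 2-fold. Rel and Nfkb2 are shown because both rose and both hold the motif, whose matches (overlapping for both genes) are in capitals. The Nfkb2 window is 1 of 3 for that gene and starts from a RefSeq start 417 bases from the gene start annotated here, and the Rel one 1 base from it. Sequences are from RefSeq (GRCm38.p6), 5′ to 3′ in the direction of transcription.
Rel, chr11:23770920-23771219, minus strand: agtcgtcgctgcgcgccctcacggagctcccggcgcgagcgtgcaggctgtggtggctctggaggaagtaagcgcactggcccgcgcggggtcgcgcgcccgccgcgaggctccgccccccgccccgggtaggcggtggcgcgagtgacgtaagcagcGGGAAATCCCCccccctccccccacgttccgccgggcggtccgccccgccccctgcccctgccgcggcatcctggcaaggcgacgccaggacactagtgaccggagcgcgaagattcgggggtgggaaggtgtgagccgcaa
Nfkb2, chr19:46304487-46304786, plus strand: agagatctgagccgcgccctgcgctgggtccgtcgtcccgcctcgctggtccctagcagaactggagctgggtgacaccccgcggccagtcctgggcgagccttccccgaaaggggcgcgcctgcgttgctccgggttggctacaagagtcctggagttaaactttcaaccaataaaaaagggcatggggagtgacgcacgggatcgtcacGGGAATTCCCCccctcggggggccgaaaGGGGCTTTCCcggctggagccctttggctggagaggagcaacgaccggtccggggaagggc
A match describes the letters and shows no binding.

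Genes of the calcium and NFAT branch mostly fell, unlike those of NF-kB. Of 23 tested, 5 rose and 15 fell, 12 of them at least 2-fold, with a median log2 fold change of −1.05. The summed level of the list went the other way, from 1212–1296 to 1487–1538 TPM. Among those that rose were Nfatc1, the NFAT member that T cells induce on activation, and Orai1, the pore of the store-operated calcium channel. Nfatc1 went from 169–191 CPM to 1629 and 1418 (8.74-fold), and Orai1 from 35.5–44.5 to 394 and 395 (9.73-fold). The family member Nfatc3 fell from 326–383 to 71.8 and 80.8 CPM, and Itpr2, an intracellular calcium release channel, from 325–385 to 57.5 and 57.2. Each of these 4 genes was separated without overlap.

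Of 29 factors of the IRF family and of helper fate tested, 14 were higher and 11 lower (10 and 9 at least 2-fold). Of all genes, 33.8% and 38.1% were higher and lower. Of the 29, 1 (Tbx21) passed the count filter through the stimulated libraries alone and 2 (Eomes and Foxp3) through the unstimulated ones alone. Irf4 (ENSMUSG00000021356, chromosome 13, 30749226 to 30766976), whose level follows TCR signal strength, was at 39, 49, 23.4, 26 and 42.5 CPM in unstimulated and at 1647 and 1592 in stimulated cells. The rise was 44.9-fold (log2 fold change 5.49 ± 0.24, adjusted p = 1.76e-08). Its relative Irf8 rose 49.5-fold from a much lower base, from 0.848–1.09 to 52.8 and 47.4 CPM. Bhlhe40, a regulator of cytokine output, rose 109-fold, and Bcl6, the factor of follicular helper cells, rose 14.5-fold from 21.8–22.2 to 362 and 278 CPM. Tbx21, which directs type 1 helper cells, was at 0 in all 5 unstimulated libraries and at 0.924 and 0.388 CPM after stimulation, a called rise from a trace level.

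Most cytokine genes had too few counts to test, 18 of 30. Of the 12 tested 7 rose and 3 fell (7 and 2 at least 2-fold), but 3 of the 12 (Il2, Lif and Areg) passed the count filter through the stimulated libraries alone and 2 through the unstimulated ones alone. Il2 (ENSMUSG00000027720, chromosome 3, 37120523 to 37125959), the growth factor of activated T cells, had at most 2 counts in any unstimulated library. It was at 3.14 and 5.89 CPM in stimulated mice 6 and 7, at least 40.0-fold higher (adjusted p = 1.22e-06) yet at a low level. Tnf was far more abundant, at 23.6, 11.9, 18.5, 11.6 and 12.7 CPM before and 879 and 812 after stimulation, a 54.0-fold rise (adjusted p = 1.45e-08). Lta, a TNF relative encoded beside it, rose 18.4-fold to 207 and 223 CPM, and Lif, a member of the IL-6 family, went from at most 0.23 to 47.9 and 63.0. Ifng, the type 1 cytokine, was at 0 in the unstimulated libraries and at 0.277 and 0.518 CPM in the stimulated ones, too low to test. Il16, present in resting T cells, fell 7.47-fold from 446–498 to 55.5 and 72.0 CPM.

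Transcripts of some chemokines and of membrane ligands of the TNF family were also higher. Ccl4, an inflammatory chemokine, was at 0 to 0.281 CPM in unstimulated mice and at 88.2 and 84.3 in stimulated ones, and Ccl3 and Xcl1, at no more than 1 count in any unstimulated library, were at least 45.3-fold and 30.2-fold higher. Of 14 chemokine genes 9 were too low to test. These 3 were among the 5 tested and passed the count filter through the stimulated libraries alone, so that no count of rises is read from the list. Of 9 TNF-family ligands tested 6 rose and 1 fell. Tnfsf14 (LIGHT) rose 260-fold from 0.526–0.848 to 163 and 202 CPM, Fasl 8.66-fold, and Cd40lg, the helper ligand for B cells, 2.90-fold from 69.1–89.0 to 234 and 214. Tnfsf10 (TRAIL) was the ligand that fell, from 23.4–31.1 to 2.77 and 1.88 CPM.

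**Figure D2:**
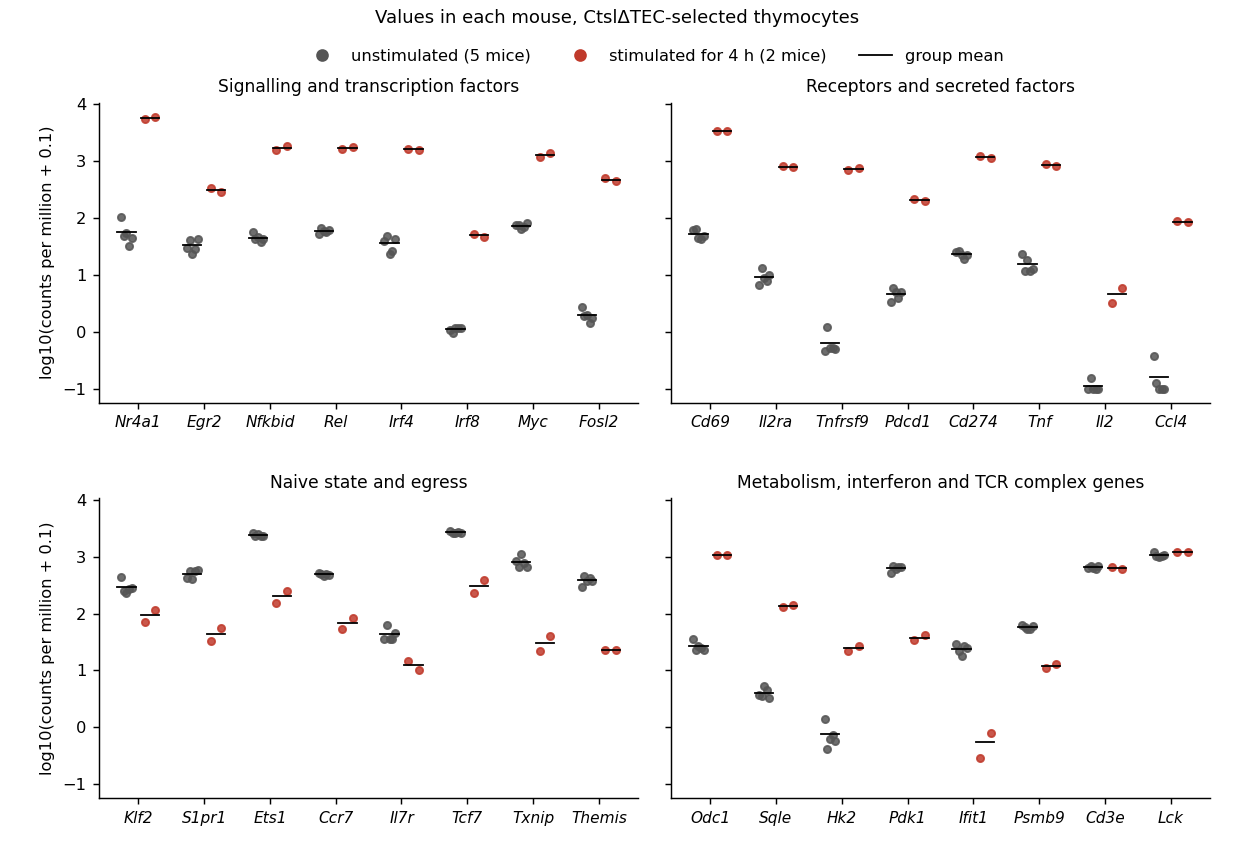
Levels of 32 genes in every mouse, as log10 of CPM plus 0.1, with unstimulated mice (n = 5) and stimulated mice (n = 2) as separate colours and black bars for the group means. The 16 signalling, transcription factor, receptor and secreted-factor genes have both stimulated mice above all unstimulated mice, the 8 genes of the naive state have both below, and Cd3e and Lck overlap.

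Receptors that mark activation rose strongly. All 25 costimulatory receptors and activation markers tested passed, 20 higher and 5 lower, with 16 and 4 at least 2-fold. Cd69 (ENSMUSG00000030156, chromosome 6, 129267325 to 129275436), whose protein the sort excluded, was at 62.4, 65.2, 43.8, 43.7 and 49.4 CPM in unstimulated cells. Stimulated cells held 3458 and 3356 CPM, a 64.4-fold rise (log2 fold change 6.01 ± 0.16, adjusted p = 9.26e-10). Tnfrsf9 (4-1BB), a costimulatory receptor of activated T cells, went from 0.357–1.14 CPM to 713 and 757. Tfrc, the transferrin receptor that supplies iron to growing cells, rose 11.3-fold, and Slamf1, Tnfrsf1b and Cd44 rose 20.8-fold, 10.2-fold and 4.72-fold.

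Inhibitory receptors and ligands were induced alongside. Of 17 tested 11 rose and 4 fell, with 9 and 4 at least 2-fold and a median log2 fold change of 2.34. Of the 17, 1 (Pdcd1lg2) passed the count filter through the stimulated libraries alone and 2 (Tigit and Cd200r1) through the unstimulated ones alone. Pdcd1 (PD-1) was at 3.32, 5.91, 5.00, 3.90 and 4.98 CPM and reached 219 and 197, a 45.2-fold rise. Both genes for PD-1 ligands rose too, Cd274 from 18.9–26.7 to 1229 and 1161 CPM and Pdcd1lg2 from 0–0.276 to 27.9 and 22.9. Cd5 and Cd6, receptors that dampen TCR signals and are set by self-reactivity in the thymus, rose 9.23-fold and 5.55-fold to 1422–1545 and 1165–1232 CPM. Btla rose 5.16-fold. Cd200r1, an inhibitory receptor, went the other way and fell from 17.4–22.6 to 0.739 and 0.259 CPM (log2 fold change −5.38, −6.23 without stimulated mouse 6 and −4.73 without mouse 7).

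Cytokine receptors and JAK-STAT genes were divided, with 12 higher and 16 lower of 32 tested (7 and 12 at least 2-fold), where 33.8% and 38.1% of all genes were higher and lower. Il2ra (ENSMUSG00000026770, chromosome 2, 11642807 to 11693193), the α-chain that gives the IL-2 receptor its high affinity, was at 6.58, 13, 8.91, 7.80 and 10 CPM in unstimulated cells. It was at 823 and 781 CPM in stimulated cells, 86.6-fold higher (adjusted p = 2.23e-09). Il15ra, Jak2 and Stat5a rose 14.2-fold, 5.92-fold and 4.65-fold, while Il7r, the receptor of the naive survival cytokine IL-7, fell from 35.4–62.5 to 14.7 and 10.0 CPM. Feedback genes of these pathways rose or fell by gene: Cish and Socs1 rose 26.9-fold and 10.1-fold, and Socs3 fell 14.3-fold, from 48.6–73.5 to 3.14 and 5.50 CPM. The kinase genes Pim1 and Pim3 rose 17.7-fold and 5.61-fold, and Pim2 fell 2.46-fold.

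The receptor genes S1pr1 and Ccr7, of thymic exit and lymph node homing, fell, and some other chemokine receptor genes rose. S1pr1 (ENSMUSG00000045092, chromosome 3, 115710433 to 115715072), which guides mature thymocytes into the blood, was at 424, 553, 400, 561 and 589 CPM in unstimulated cells. It was at 33.1 and 54.9 CPM in stimulated cells, 11.4-fold lower (log2 fold change −3.51 ± 0.25, adjusted p = 5.04e-07). Ccr7, the receptor for homing to lymph nodes, fell 7.01-fold from 452–521 CPM, and Klf2, an activator of S1pr1, 3.11-fold from 234–445. The stimulated values of these 3 genes lay below every unstimulated value. Of the 19 chemokine and egress receptors tested 9 rose and 8 fell (8 and 7 at least 2-fold), and 3 of those that rose passed the count filter through the stimulated libraries alone. Cxcr3 had at most 2 counts in any unstimulated library and 15 and 15.5 CPM in stimulated cells, at least 135-fold higher. Ccr8 rose 116-fold from 0.0302–0.153 to 14.3 and 14.8 CPM, Cxcr5 39.5-fold to 11.4 and 13.1, and Ccr4 19.7-fold to 133 and 95.3.

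Most genes of TCR signalling fell. Of 32 genes of the TCR complex, coreceptors and proximal signalling, 8 rose and 19 fell, with 4 and 13 at least 2-fold. The summed level of the list went the other way, from 10340–11120 to 11810–11820 TPM. Cd3e was at 602 to 683 CPM before and 665 and 615 after stimulation, and Lck, the coreceptor kinase, at 988 to 1216 and 1198 and 1190. Both groups overlapped for these genes and neither passed the test, though Cd3e passed with library totals (log2 fold change −0.18) and Lck in 5 alternatives (0.19 to 0.22). Zap70, the kinase that binds the CD3 chains, rose 5.10-fold from 274–329 to 1326 and 1674 CPM, and its substrate Lcp2 (SLP-76) 4.76-fold from 339–373 to 1832 and 1546. Ptprc (CD45), which activates Lck, rose 2.67-fold to 7293 and 6991 CPM. Themis, an adaptor needed for selection, fell 16.9-fold from 298–453 to 22.8 and 22.5, and Grap2, the SLP-76 partner Gads, 7.77-fold from 682–819 to 90.5 and 109. Cd4 fell 1.30-fold and Cd8b1 3.97-fold, from 119–154 to 36.2 and 36.0 CPM.

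Inhibitors of the MAPK branch were induced. Of 15 MAPK phosphatases and Sprouty proteins tested 10 rose, all at least 2-fold, and 3 fell, with a median log2 fold change of 3.19. Of the 15, 2 (Dusp8 and Spry2) passed the count filter through the stimulated libraries alone. Spry1, an inhibitor of Ras-MAPK signalling, was at 0.689, 0.0293, 0.526, 0.272 and 0.101 CPM and reached 425 and 522 (log2 fold change 10.52 ± 0.36, adjusted p = 4.22e-09, and 11.11 without unstimulated mouse 1). Spry2 and Dusp4 went from means of 0.0584 and 1.06 CPM to 35.5 and 173. Dusp2, a nuclear phosphatase of ERK, rose 13.3-fold to 2052 and 2220 CPM. Other TCR feedback inhibitors changed either way, 11 higher and 14 lower of 25 (7 and 10 at least 2-fold). Sla2 and Sit1, which restrain TCR signalling, fell 6.45-fold and 4.87-fold, Rasal3, a Ras inhibitor, 4.88-fold from 801–1029 to 178 and 190, and Ubash3b rose 4.80-fold. Rgs16, a regulator of G-protein signalling, had at most 2 counts in any unstimulated library and 117 and 111 CPM in stimulated cells, at least 1011-fold higher. It was 1 of 3 RGS genes that rose, and 6 of the 10 tested fell. Of these 10, 1 (Rgs16) passed the count filter through the stimulated libraries alone and 1 (Rgs12) through the unstimulated ones alone.

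Genes of the quiescent, naive state mostly fell. Of 49 tested 34 fell, 10 rose and 5 did not pass the test, with 29 lower and 4 higher at least 2-fold and a median log2 fold change of −1.73. Tcf7 (ENSMUSG00000000782, chromosome 11, 52252371 to 52283014), which encodes the T cell factor TCF-1, was at 2854, 2640, 2576, 2689 and 2592 CPM in unstimulated and at 228 and 383 in stimulated cells. The fall was 8.74-fold (log2 fold change −3.13 ± 0.19, adjusted p = 1.65e-07), and the groups lay far apart. Ets1 fell 11.8-fold from 2293–2619 to 153 and 253 CPM. Txnip, which restrains glucose uptake, fell 25.9-fold from 648–1099 to 21.8 and 39.9, and Arl4c, a small GTPase, 28.2-fold. All 8 GIMAP genes, GTPases that sustain resting lymphocytes, fell, 6 of them at least 2-fold. Gimap3 fell 4.49-fold from 1176–1383 to 293 and 278 CPM and Gimap7 10.7-fold. Of 49 lysosome and autophagy genes 29 fell and 13 rose (18 and 5 at least 2-fold). Of the 49, 3 (Mitf, Ctsh and Wipi1) passed the count filter through the unstimulated libraries alone. Tfeb, the main activator of lysosomal genes, fell from 9.91–14.2 to 0.924 and 1.81 CPM (log2 fold change −3.09, −3.73 without stimulated mouse 7), the lysosomal protease gene Ctsd 8.47-fold from 324–363 to 32.9 and 47.5 CPM, and the autophagy kinase gene Ulk2 8.85-fold.

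**Figure D3:**
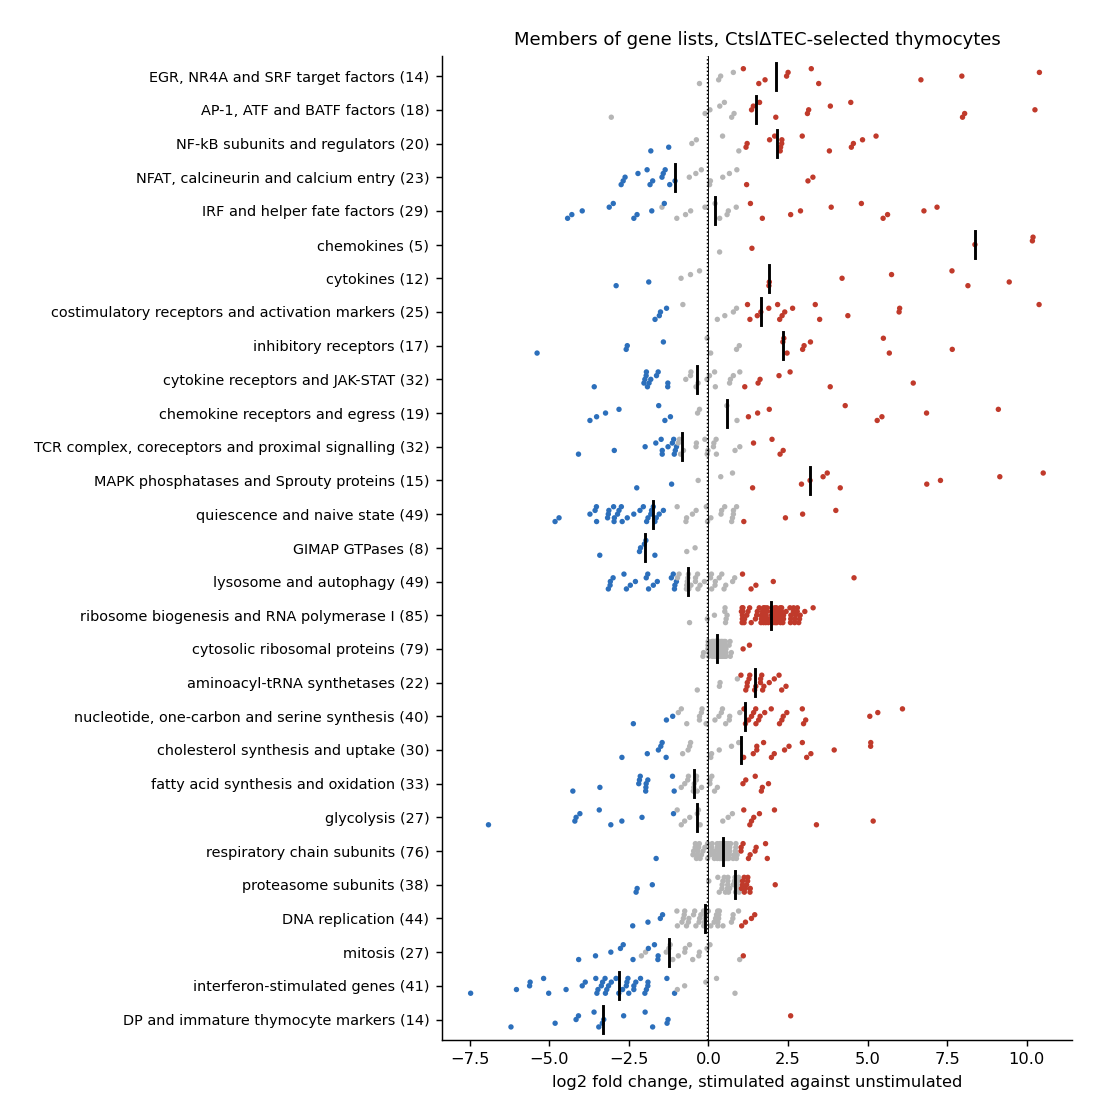
Each point is 1 tested gene of the list named on the y axis (number tested in brackets), placed at its log2 fold change, stimulated against unstimulated, with red for genes that rose at least 2-fold, blue for those that fell at least 2-fold and grey for the rest. Black bars are list medians and the dotted line is the median of all genes tested, −0.05. Ribosome biogenesis genes gather near 1.98, interferon-stimulated genes near −2.82, and the receptor lists spread to both sides.

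Ribosome biogenesis genes rose together, and the MYC network did not. Myc (ENSMUSG00000022346, chromosome 15, 61985391 to 61990374), a factor that drives growth on activation, was at 75.9, 74.2, 64.8, 70.1 and 82.8 CPM and reached 1204 and 1404, a 17.7-fold rise (adjusted p = 5.34e-10). Mxd4 and Mxi1, antagonists of MYC, fell 8.07-fold and 5.47-fold, and of 10 genes of the MYC and MAX network 3 rose and 4 fell (median log2 fold change −0.10). Of 85 genes of ribosome biogenesis and RNA polymerase I, 82 rose, 77 of them at least 2-fold, and 1 fell, with a median log2 fold change of 1.98. Gnl3 (nucleostemin) went from 56.7–67.0 to 579 and 644 CPM, Polr1b, a subunit of RNA polymerase I, from 44.0–50.7 to 338 and 375, and Rrp12 and Nop16 rose 7.27-fold and 7.15-fold. The E-box CACGTG, a sequence that MYC and other factors can bind, was present in 17.0% of the 88 promoters of these genes, in 13.3% of those of all genes that rose at least 2-fold, in 9.46% of those of genes tested and in 7.15% of all promoters in the table. The share was higher, 29.8% of 47 promoters, for the lysosome and autophagy genes, most of which fell. The ribosomal proteins themselves moved little: 52 of 79 rose and none fell, with 2 of them (Rpl5 and Rpl12) at least 2-fold, with a median log2 fold change of 0.28.

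Genes of translation and amino acid supply followed. Of 50 initiation and elongation factors 40 rose and 6 fell (23 and 2 at least 2-fold). Eif4a1, the helicase of translation initiation, rose 3.67-fold from 522–551 to 1939 and 2002 CPM and Eif5a 4.84-fold. Of 22 aminoacyl-tRNA synthetase genes 21 rose, 18 of them at least 2-fold, and 1 fell. Cars went from 24.3–25.8 to 144 and 126 CPM, Aars from 47.4–60.2 to 287 and 242, and Yars from 38.1–41.2 to 186 and 178. Letters of an ATF4 motif, TGATGNAA, occurred in 33.3% of the 15 synthetase promoters in the table, against 3.97% of all promoters. They occurred in 2.59% and 2.41% of the promoters of genes that rose and fell at least 2-fold. ATF4 is the factor of the amino acid response. The promoters of Yars and Iars (RefSeq, GRCm38.p6), which rose 4.66-fold and 4.20-fold, are shown with the motif on either strand in capitals.
Yars, chr4:129189653-129189952, plus strand: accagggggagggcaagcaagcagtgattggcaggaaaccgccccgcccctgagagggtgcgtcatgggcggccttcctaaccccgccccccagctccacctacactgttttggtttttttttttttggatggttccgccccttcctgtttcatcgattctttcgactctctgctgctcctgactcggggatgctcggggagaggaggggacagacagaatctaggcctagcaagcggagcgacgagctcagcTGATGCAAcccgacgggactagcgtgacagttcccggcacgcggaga
Iars, chr13:49681880-49682179, plus strand: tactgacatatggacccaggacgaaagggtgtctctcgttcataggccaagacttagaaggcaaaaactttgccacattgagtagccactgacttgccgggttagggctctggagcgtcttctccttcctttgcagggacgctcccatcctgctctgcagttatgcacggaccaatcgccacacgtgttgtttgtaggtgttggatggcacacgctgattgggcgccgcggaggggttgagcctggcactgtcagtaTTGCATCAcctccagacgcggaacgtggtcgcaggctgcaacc
Slc7a5, the large neutral amino acid transporter, was at 41.2, 41.3, 41.9, 37.3 and 38.1 CPM and reached 547 and 546 (13.7-fold, adjusted p = 2.13e-10), and Slc7a1, which carries cationic amino acids, rose 13.8-fold to 936 and 966. The monocarboxylate exporter Slc16a3 rose 18.4-fold. Slc16a5, another member of that family, fell 73.7-fold from 107–127 to 1.57 and 1.55 CPM. In all 15 of 25 transporters rose and 6 fell (14 and 3 at least 2-fold). Of the 25, 2 passed the count filter through the unstimulated libraries alone.

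Biosynthetic pathways were induced selectively. In nucleotide, one-carbon and serine synthesis 28 of 40 genes rose and 7 fell (21 and 3 at least 2-fold). Odc1, the first enzyme of polyamine synthesis, went from 22.6–36.1 to 1065 and 1065 CPM, 40.0-fold higher (adjusted p = 1.84e-09), Shmt1 rose 33.6-fold and Ctps, which makes CTP, 7.94-fold. Phgdh, which begins serine synthesis, fell 1.22-fold, a call lost without stimulated mouse 7 (log2 fold change −0.19), whereas Psat1, the next enzyme of that pathway, rose 7.73-fold. Of 30 genes of cholesterol synthesis and uptake 18 rose and 10 fell (15 and 6 at least 2-fold). Sqle, an enzyme of sterol synthesis, was at 3.62, 3.42, 5.26, 4.44 and 3.22 CPM and reached 133 and 139, a 34.3-fold rise (adjusted p = 1.89e-09). Fatty acid genes went mostly down, 19 lower and 7 higher of 33 (11 and 6 at least 2-fold): Scd2, a desaturase, fell 10.6-fold, Cpt1a, the gate of mitochondrial oxidation, 4.56-fold, and Hadh, a β-oxidation enzyme, 19.2-fold from 40.0–42.8 to 2.03 and 2.26 CPM.

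Glycolysis genes did not move as 1 group, with 10 higher and 15 lower of 27 (8 and 9 at least 2-fold). Of the 27, 3 (Hk3, Aldoc and Pdk4) passed the count filter through the unstimulated libraries alone. Hk2, the inducible hexokinase, was at 1.33, 0.322, 0.526, 0.634 and 0.477 CPM and reached 22 and 26.5, a 36.2-fold rise (adjusted p = 4.06e-07). Pdk1, which keeps pyruvate from mitochondria, fell 16.4-fold from 509–677 to 34.4 and 41.2 CPM, and Ldhb 10.8-fold. Respiratory chain subunits shifted modestly and mostly up, 53 higher and 11 lower of 76, but 9 and 1 at least 2-fold. Atp5g1 of the ATP synthase rose 3.60-fold and the cytochrome c gene Cycs 3.47-fold.

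Most proteasome subunits rose, and those of the immunoproteasome fell. Of 38 tested 34 rose and 3 fell (12 and 3 at least 2-fold). The 3 that fell were Psmb8, Psmb9 and Psmb10, the interferon-inducible catalytic subunits, which went from 187–228, 52.5–64.0 and 49.8–66.5 CPM to 57.7 and 65.0, 11.1 and 12.7, and 11.2 and 13.9. Psme3, the nuclear proteasome activator, rose 4.28-fold. Of 33 heat-shock and TRiC chaperone genes 24 rose and 3 fell (19 and 2 at least 2-fold), including rises of 3.71-fold for Hspa5 (BiP), 3.36-fold for Hsp90aa1 and 3.04-fold for Hspd1. Splicing factors and mRNA export genes rose in 49 of 60 cases, 13 of them at least 2-fold, and fell in 4.

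Single cell cycle genes changed strongly, while DNA replication genes changed about as often as all genes did. Ccnd2 (cyclin D2) rose 3.57-fold from 175–234 to 680 and 766 CPM, while 2 brakes of G1, Cdkn1b (p27) and Rbl2 (p130), fell 7.24-fold and 8.51-fold. Cdkn1a (p21) went from 0.0754–0.15 to 37.1 and 27.4 CPM, 295-fold higher (adjusted p = 7.38e-10). Of 44 DNA replication genes 14 rose and 15 fell, near the 33.8% and 38.1% of all genes, and 4 and 4 changed at least 2-fold, against 17.1% and 23.8% of all genes. Of 27 mitosis genes, 6 of which passed the count filter through the unstimulated libraries alone, 2 rose and 11 fell (1 and 10 at least 2-fold), and their summed level went from 177–227 to 51.8–62.0 TPM. Mki67 did not pass the test and varied between unstimulated mice, from 1.76 to 16.2 CPM.

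BCL2-family and death genes changed in both directions. Bcl2l1 (BCL-XL) was at 26.7, 19.1, 23.5, 23.6 and 20.3 CPM and reached 215 and 317, an 11.8-fold rise (adjusted p = 1.4e-08). Bcl2a1b and Bcl2a1d, near-identical copies of the A1 gene whose reads the quantification had to divide, rose 70.4-fold and 77.8-fold, and Bcl2 itself 1.85-fold. Bmf, a BH3-only death gene, fell 14.6-fold from 8.07–21.1 to 0.832 and 1.16 CPM. Over the list 16 of 36 rose and 12 fell, where 33.8% and 38.1% of all genes did. At least 2-fold, 14 rose and 6 fell, against 17.1% and 23.8% of all genes. Of the 36, 3 (Bik, Hrk and Bcl2l14) passed the count filter through the unstimulated libraries alone. The median log2 fold change of the list, 0.14, became negative (−0.02) when libraries were scaled by their totals.

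Interferon-stimulated genes fell almost throughout. Of 41 tested 37 fell, 36 of them at least 2-fold, 1 rose and 3 did not pass, though 11 of the 41, Ifit1, Rtp4, Usp18 and Tgtp1 among them, passed the count filter through the unstimulated libraries alone. The median log2 fold change was −2.82, or −2.70 with the 4 genes at the counting floor set to their bound, and the summed level went from 1201–1317 to 256–273 TPM. Ifit1, an interferon-induced RNA-binding protein, was at 29.5, 21.7, 18.1, 27.2 and 24.6 CPM in unstimulated cells and at 0.185 and 0.712 in stimulated cells, 49.1-fold lower (log2 fold change −5.62 ± 0.37, adjusted p = 2.91e-07, and −7.03 without stimulated mouse 7). Rtp4 fell 48.6-fold, and Usp18, which limits interferon signalling, fell from 5.00–9.59 to 0.462 and 0 CPM. Tgtp1, a GTPase with a close copy (Tgtp2) that can share its reads, was at least 37.0-fold lower. The motif of the interferon-stimulated response element was searched after this fall had been seen. It was present in 55.6% of the 36 promoters of the list and in 3.44% of all promoters. Among genes that rose and fell at least 2-fold, 2.68% and 4.05% of promoters held it. Ifit1 and Tgtp1 are shown (RefSeq, GRCm38.p6), with matches on either strand in capitals. The RefSeq start used for Tgtp1 lies 1926 bases from the gene start annotated here, and that for Ifit1 18 bases.
Ifit1, chr19:34640639-34640938, plus strand: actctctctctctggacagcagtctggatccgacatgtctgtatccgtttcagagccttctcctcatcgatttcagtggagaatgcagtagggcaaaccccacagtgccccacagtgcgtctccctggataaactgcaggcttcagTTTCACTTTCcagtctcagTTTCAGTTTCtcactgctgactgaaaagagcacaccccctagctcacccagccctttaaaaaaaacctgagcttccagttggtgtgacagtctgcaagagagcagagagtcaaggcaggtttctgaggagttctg
Tgtp1, chr11:48992197-48992496, minus strand: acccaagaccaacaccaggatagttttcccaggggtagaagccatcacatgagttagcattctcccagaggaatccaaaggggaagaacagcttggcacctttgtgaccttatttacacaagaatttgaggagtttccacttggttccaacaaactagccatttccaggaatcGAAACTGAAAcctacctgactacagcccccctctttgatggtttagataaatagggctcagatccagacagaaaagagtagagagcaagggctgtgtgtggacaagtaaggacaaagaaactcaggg

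Markers of immature thymocytes fell with these genes. Of 14 markers of double-positive and immature cells 13 fell and 1 rose, all at least 2-fold, with a median log2 fold change of −3.31 (−2.33 with the 2 genes at the counting floor set to their bound), and their summed level went from 694–799 to 101–107 TPM, below the unstimulated range in both stimulated mice. Dntt (terminal transferase) fell 17.9-fold from 64.2–88.6 to 5.45 and 3.17 CPM, Tmie 28.2-fold from 140–185 to 3.97 and 7.31, and Cd1d1 10.9-fold. Rag1 was at 12, 4.53, 26.8, 16 and 5.2 CPM and then at 1.48 and 1.10, 10.1-fold lower. Of the 14 markers, 2 (Rag2 and Ptcra) passed the count filter through the unstimulated libraries alone. The list overlaps the TCR list in Themis, Cd8a and Cd8b1. A change in the cells that were sampled and a change within cells cannot be told apart for these genes.

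Markers of most other cell types were low in both groups, and erythroid markers were not. Myeloid and dendritic cell markers (19 genes, 15 tested) summed to 9.82–22.2 TPM in unstimulated and 22.9–26.5 in stimulated libraries. Of the 15 tested, 1 passed the count filter through the stimulated libraries alone and 6, C1qa and Fcgr3 among them, through the unstimulated ones alone. C1qa and Fcgr3 were at 0 in both stimulated libraries and at most 2.16 CPM in all unstimulated ones, while Cd74 rose 6.66-fold to 15.4 and 12.8 CPM. B cell markers summed to at most 2.83 TPM and NK cell markers to at most 18.6. Thymic epithelial markers summed to 40.5–50.7 and 29.2–35.3 TPM, with 6 of the 14 too low to test. Erythroid markers varied between unstimulated mice, from 162 to 776 TPM, and were at 19.0 and 72.3 in stimulated ones, and 5 of the 6 tested, 3 of which passed the count filter through the unstimulated libraries alone, fell at least 2-fold and 1 rose. The part of these cells in the results above was not tested. Regulatory T cell markers were 4 higher and 2 lower of 9. Of the 9, 1 (Lrrc32) passed the count filter through the stimulated libraries alone and 1 (Foxp3) through the unstimulated ones alone. Lrrc32 (GARP) was at least 273-fold higher at 30.6 and 30.9 CPM and Ikzf2 (Helios) rose 3.24-fold. Foxp3, the lineage factor, went from 0.677–1.16 to 0.0924 and 0 CPM.

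By abundance, the protein-coding genes that rose at least 2-fold with the highest TPM after stimulation included Nr4a1, H2-K1, Itm2a, Cd69, Srgn, Ptprc, Dusp2 and Eif4a1. Itm2a, a membrane protein linked to thymic selection, went from 139–193 to 4538 and 4727 CPM (29.3-fold) and H2-K1, an MHC class I gene, from 1263–1588 to 3268 and 3537. Among the abundant genes that fell were Tmsb4x, which binds actin monomers and fell 3.42-fold from 1468–1797 CPM, Arhgdib, which fell 5.31-fold, Thy1, 9.25-fold from 965–1237 to 117 and 119, and Arhgap45, 5.77-fold from 2175–2828. Outside the lists, Dtx1, a Notch target, fell 53.5-fold from 318–554 to 6.47 and 9.90 CPM, and Itgb3, an integrin chain, 45.8-fold from 379–489 to 6.84 and 11.5. Art2b, an ADP-ribosyltransferase of the T cell surface, was at 65.5 and 67.8 CPM in unstimulated mice 2 and 5, at 13.9 to 20.9 in the others and at 0.554 and 0.0647 in stimulated mice. Its log2 fold change of −7.11 was −9.12 without stimulated mouse 6 and −6.10 without mouse 7. Parp16 fell from 14.9–18.2 to 0 and 0.324 CPM.

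Some genes were counted in only 1 of the 2 states. With at most 3 counts in every library of one group and at least 30 in every library of the other, 18 genes were switched on, 17 of them protein-coding, and 70 switched off, 59 of them protein-coding. The 2 numbers cannot be compared, since at most 3 counts is easier to meet in 2 libraries with smaller totals than in 5 with larger ones. The genes switched on with the largest bounds were Rgs16, Npas4 (a neuronal activity factor, at least 400-fold), Ifitm2 (392-fold), Lrrc32, Spin4 (196-fold), Atf3, Cxcr3 and Akr1c18 (51.0-fold). Those switched off included Ifit1bl1 (at least 53.5-fold), Tgtp1, Ccdc142 (33.4-fold), the vesicle GTPase gene Rab3a (23.3-fold) and Cmpk2 (20.8-fold). The largest bound among genes switched off, 334-fold, belongs to the pseudogene Gm28439, which can share reads with its parent sequence.

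Whether the response differed from that of control cells was tested for every gene as an interaction over all 13 libraries. Their CPM values here are scaled over the 13 and so differ slightly from those above. Among unstimulated mice, control mouse 4 and CtslΔTEC mice 1 and 3 carry the first date and the others the second. The part of this unequal split in the differences was not tested. Stimulated control mouse 5 had the smallest library, at 8085463 estimated counts against 27184520 for control mouse 6. Its retained-intron share of TPM, 7.82%, was the lowest of the stimulated libraries. The part of either in the differences was not tested. Of 14241 genes, 161 (1.13%) had a larger rise or smaller fall in CtslΔTEC cells and 695 (4.88%) a smaller rise or larger fall. With 2 stimulated mice per genotype these counts depended on single libraries: they were 49 and 291 without stimulated control mouse 5, 62 and 272 without stimulated CtslΔTEC mouse 6, 99 larger without CtslΔTEC mouse 7 and 340 larger without control mouse 6. The genes given next with a called difference kept it in each of these fits. Fosl2 was at 5.73–12.6 CPM in unstimulated control cells and 331 and 420 after stimulation, against 1.35–2.60 and 493 and 433 in CtslΔTEC cells. The CtslΔTEC rise was larger by 2.50 on the log2 scale (adjusted p = 0.00377), from a lower start. Ccr8 went from 2.61–9.72 to 86.6 and 88.7 CPM in control cells, and from 0.030–0.152 to 14 and 14.4 in CtslΔTEC cells, a larger fold (3.02 on the log2 scale, adjusted p = 0.0172) that ended at a lower level. Adgre5 (CD97) went from 202–248 to 91.7 and 107 in control cells and from 215–252 to 269 and 309 in CtslΔTEC cells (difference 1.54, adjusted p = 0.000641). Its rise in CtslΔTEC cells was small, with a log2 fold change of 0.37, and of 0.24 without stimulated mouse 7.

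For other genes the difference was negative, a smaller rise or a larger fall in CtslΔTEC cells. Il2ra was at 2.01–2.61 CPM in unstimulated control and 6.52–12.9 in unstimulated CtslΔTEC cells, and at 671–731 and 764–804 after stimulation (difference −1.83, adjusted p = 0.00389). Myb, a factor of thymocyte development, was at 13.4–20.6 and 94.9–110 CPM before and 289–310 and 520–566 after stimulation (difference −1.82, adjusted p = 0.000641). Trat1, a TCR-associated adaptor, went in CtslΔTEC cells from 81.0–142 to 6.05 and 7.52 CPM against 112–165 to 50.8 and 26.7 in control cells (−2.21, adjusted p = 0.00628). Phgdh went in control cells from 51.7–61.4 to 228 and 94.6 CPM, and went from 67.8–73.5 to 62.7 and 52.9 in CtslΔTEC cells (−1.83, adjusted p = 0.00779, and −1.07 without stimulated control mouse 5). Il2 reached 54.4 and 50.7 CPM in control cells and 3.07 and 5.75 in CtslΔTEC cells. The difference in its response, −3.91 on the log2 scale, did not pass the test (adjusted p = 0.283), with unstimulated libraries of both genotypes at or near 0 counts.

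**Figure D4:**
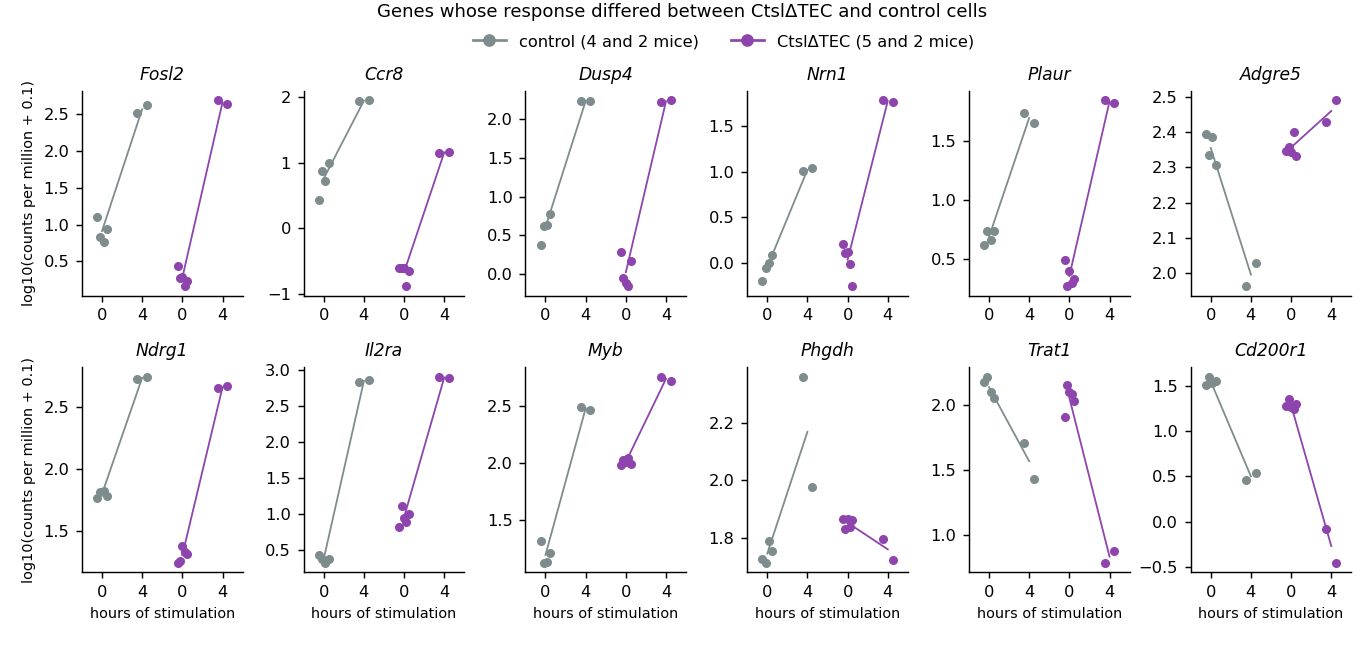
Levels of 12 genes in every mouse at 0 and 4 h of stimulation, as log10 of CPM plus 0.1, for control mice (4 and 2) and CtslΔTEC mice (5 and 2), with lines joining the group means. Fosl2 and Ccr8 start lower in CtslΔTEC cells, Il2ra and Myb start higher, and Adgre5 turns in opposite directions.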

How the data were processed

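RNA was sequenced from sorted M2 CD4SP thymocytes, 1 library per mouse. The labels give polyA RNA, whereas the study's methods describe ribosomal RNA depletion. The authors quantified reads with kallisto (version 0.48 in the submitters' processing notes) and deposited, per transcript, an estimated count, an effective length and a TPM value. The deposited estimated counts divide reads that fit several transcripts, so near-identical genes are uncertain. The deposited TPM values were used for shares and summed levels, and the deposited effective lengths for 1 alternative.

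Estimated counts were summed to genes with a GRCm38 GENCODE annotation (116397 of 117497 transcripts matched, the rest holding at most 0.461% of a library's counts) and rounded. The study used a later Ensembl release, so some symbols may differ. The 2 stimulated and 5 unstimulated CtslΔTEC libraries were compared with edgeR 4.0.16 (R 4.3.3, quasi-likelihood test, TMM factors, filterByExpr) with Benjamini-Hochberg adjustment over all genes tested. Genes were called at an adjusted p under 0.1. CPM values are counts scaled to a common total with TMM factors of the 7 libraries, or of all 13 where genotypes are compared, and each adjusted p printed comes from this fit unless a difference in response is named, which was tested in a 4-group model of all 13 libraries. P-values measure the spread between these mice. The procedure was tested on simulated data in which few genes changed, equally up and down. That setting differs from these data and cannot check scaling or error rates here. DESeq2 1.42.0 and the other alternatives are given with the closing results.

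Named genes were the 15 protein-coding genes with the largest rises and the 15 with the largest falls (no overlap between groups, a mean of at least 10 CPM in the higher group), the 10 most abundant genes changed at least 2-fold in each direction, up to 6 called and 3 uncalled members of each gene list, those with the largest differences between genotypes, genes switched on or off, and a fixed set of T cell genes. The members and lists were chosen with earlier results of these data known. Replicates of a group differed by more than sampling noise (chi-square per degree of freedom 9.73 to 88.0), and none was merged. Total counts differed between groups, and floors cover counting error only. The SE values come from the quasi-likelihood fit, which includes the spread between mice. A fold against a group with at most 3 counts in every library is a bound, computed against 3 counts per library. Promoters are 300-base RefSeq windows around RefSeq's own gene starts (GRCm38.p6), which can differ from those of the annotation used for counting, with 10301 of 13996 tested genes matched by symbol. The NF-kB and interferon response motifs are given by name, and the latter was added after the values were seen. Results of some genes are not reported here.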

Additional observations from a re-analysis of the deposited data

Results flagged for a closer look

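Of 157 named genes checked in the 5 unstimulated mice, 5 had a mouse far from the other 4 by Dixon's test. Chance flags about 1 in 20 groups, and 5 is no more than that. Mouse 4 held 2.99 CPM of Cd74 against 1.77 to 2.02 in the other 4 mice. Mouse 1 stood apart for the rest, with Klf2 at 445 CPM (others 234 to 282), Nfatc1 at 191 (169 to 172), Rpl12 at 163 (98.2 to 115) and Stat5a at 117 (94.3 to 97.7).

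The response to stimulation differed between CtslΔTEC and control cells, at an adjusted p under 0.1 (edgeR interaction test over 13 libraries), for 40 of the 186 genes followed through the alternatives. Some of these genes were chosen for the size of this difference, so the number is not to be set against the 1.13% and 4.88% of all genes called in each direction. Of these calls 22 were lost when 1 stimulated library was left out, 17 of them without control mouse 5, 16 without CtslΔTEC mouse 6, 12 without CtslΔTEC mouse 7 and 3 without control mouse 6. The 17 that held in every alternative run were Adgre5, Arhgdib, Bmf, Ccr8, Cd1d1, Cd6, Ets1, Fosl2, Hadh, Il16, Il2ra, Myb, Pdk1, Phgdh, Psmb10, Scd2 and Trat1. The values are the CtslΔTEC minus the control response on the log2 scale. It was positive, meaning a larger rise or a smaller fall in CtslΔTEC cells, for Ccr8 (3.02), Fosl2 (2.50), Dusp4 (1.92), Adgre5 (1.54), Irf8 (1.20), Ccnd2 (0.92), Itm2a (0.87), Cd5 (0.78), Cd6 (0.71), Shmt1 (0.62) and Eif4a1 (0.37). Among genes induced in CtslΔTEC cells it was negative for Il2ra (−1.83), Myb (−1.82) and Bcl2a1d (−0.96).

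Among genes that fell in CtslΔTEC cells it was negative for Ccdc142 (−3.48), Ldhb (−3.10), Bmf (−2.58), Trat1 (−2.21), Scd2 (−1.58), Dntt (−1.55), Hadh (−1.51), Il16 (−1.37), Ets1 (−1.22), Pdk1 (−1.22), Psmb10 (−1.09), Cd1d1 (−1.03), Slc16a5 (−0.99), Itgb3 (−0.96), Themis (−0.90), Arl4c (−0.84), Arhgdib (−0.77), Psmb8 (−0.70), Sla2 (−0.68) and Arhgap45 (−0.66). For 6 more genes a single stimulated library moved the value by over 1.5 times. Phgdh (−1.83) was at −1.07 and Gimap7 (−0.83) at −0.54 without control mouse 5, the second no longer called. Without CtslΔTEC mouse 6 and mouse 7 in turn, Rab3a (−3.23) was at −7.42 and −2.02, Parp16 (−2.01) at −1.24 and −7.43, Cd200r1 (−1.93) at −2.75 and −1.26 and Tcf7 (−0.75) at −0.43 and −1.18, and the smaller value of each pair did not pass the test (adjusted p = 0.183, 0.437, 0.111 and 0.265, edgeR).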

How the results depend on the processing

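No paired analysis was possible because stimulated mice (6 and 7) and unstimulated mice (1 to 5) carry different numbers in the sample titles. The deposited files carry other mouse numbers for some libraries, and the titles were used. Over all alternatives the counts of genes that rose (3969 to 4918) and fell (4352 to 6048), and of those changed at least 2-fold (1692 to 2576 and 2338 to 3787), stayed within 1.5 times the values reported. The interaction counts did not. The 161 genes with a larger rise or smaller fall in CtslΔTEC cells became 309 by DESeq2, 86 at an adjusted p under 0.05 and 49 to 340 when 1 stimulated library was left out. The 695 with a smaller rise or larger fall became 444 with libraries thinned to the smallest total, 385 at an adjusted p under 0.05 and 272 to 887 when 1 stimulated library was left out. The cause was not tested.

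Changes of sign were found in genes that did not pass the test. Cd3e was at 0.02 with RLE factors and by DESeq2, 0.03 against the first-date mice, 0.05 after thinning, −0.18 (adjusted p = 0.0738) with library totals, and ranged from −0.09 to 0.02 when 1 mouse was left out. Lck was at −0.01 with library totals, Jun at 3.25 against the second-date and −4.34 against the first-date mice, past the test in both, and Junb at −0.30 against the first-date mice. The calls of Adgre5 (0.24), C1qa and Phgdh (−0.19) were lost without stimulated mouse 7, those of Phgdh, Uty and Kdm5d in the 4-group model, and that of Kdm5d also by DESeq2, against the first-date mice and at an adjusted p under 0.05. Calls were gained by Lck in 5 alternatives, by Junb also without unstimulated mouse 1 and by Mki67 against the first-date mice and without unstimulated mouse 5. Low counts kept 18 of 30 cytokines and 9 of 14 chemokines from being tested.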
